A study of Mus musculus with 8 samples.

Results

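The small nucleolar RNA (snoRNA) host genes described here are Gas5, Snhg1, Snhg3, Snhg5, Snhg6, Snhg8 and Snhg12. They were chosen by symbol, through the Ensembl identifiers of the count files and the GENCODE M21 annotation, and make up 7 of the 55414 genes listed. Neutrophils of 4 WT mice and 4 Cxcr2-/- mice were compared. All mice were FVB, 10 weeks old and kept under SOPF housing, and the Cxcr2-/- animals were constitutive knockouts, which lack the chemokine receptor in all cells and not in neutrophils alone. Cells positive for CD45, CD11b and Ly6G and negative for the macrophage protein F4/80 were sorted from the spleen after red cell lysis and CD11b selection, and each mouse gave 1 rRNA-depleted, directional library. The comparison asks how the host genes of this sorted population differ between the genotypes.

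A snoRNA host gene carries snoRNAs inside its introns. After splicing, the introns are trimmed to free the snoRNAs, which pair with ribosomal RNA and guide its methylation (box C/D class) or pseudouridylation (box H/ACA class), while the spliced exons of the host remain as a long noncoding RNA (lncRNA). Many host transcripts begin, like the mRNAs of ribosomal proteins, with a 5' terminal oligopyrimidine (TOP) tract read by mTOR signalling, and many are degraded by nonsense-mediated decay once ribosomes engage them. The spliced Gas5 RNA is known to accumulate in growth-arrested cells and to bind the glucocorticoid receptor.

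Start sites are shown because a pyrimidine run there is the sequence feature that host genes are known for. Each line gives 50 bases before and 50 bases from the RefSeq start site (GRCm38.p6), 5' to 3' on the strand of the gene, with the longest run of C and T that reaches into the 20 bases around the start in capitals.
Gas5 (chr1:161035116-161035215, plus strand): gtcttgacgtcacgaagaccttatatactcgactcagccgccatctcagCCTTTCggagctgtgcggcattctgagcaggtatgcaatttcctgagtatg
Snhg8 (chr3:123508287-123508386, minus strand): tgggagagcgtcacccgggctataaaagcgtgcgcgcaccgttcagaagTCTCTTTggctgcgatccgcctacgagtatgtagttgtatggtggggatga
Snhg12 (chr4:132308628-132308727, plus strand): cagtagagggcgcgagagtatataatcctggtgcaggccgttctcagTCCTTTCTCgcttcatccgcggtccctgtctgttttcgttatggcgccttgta
Snhg1 (chr19:8723437-8723536, plus strand): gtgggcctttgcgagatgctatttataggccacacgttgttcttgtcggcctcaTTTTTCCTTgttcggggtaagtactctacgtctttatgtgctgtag
Snhg5 (chr9:88522848-88522947, minus strand): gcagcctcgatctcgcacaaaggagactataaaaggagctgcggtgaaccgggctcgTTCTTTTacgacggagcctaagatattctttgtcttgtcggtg

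The run was 6 bases long in Gas5, 7 in Snhg8 and Snhg5, and 9 in Snhg12 and Snhg1. Of all 32851 promoters in the RefSeq table, 29.2% held a run of at least 6 and 19.7% a run of at least 7 at the same place. In Gas5, Snhg8 and Snhg12 the run began within 3 bases of the start. In Snhg1 and Snhg5 it began at bases 5 and 8, with the start itself counted as the first base. Snhg3 had a run of 5, a length reached by 44.9% of promoters, and a second RefSeq start of Gas5, farther upstream, had a run of 3. The letters TATAA, searched on the gene strand between 45 and 16 bases before the start, were found in Snhg8, Snhg12 and Snhg5 and in 3.89% of all promoters. These matches describe the letters in the windows and were not tested as sites. Snhg6 had no entry in the table.

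The 7 genes lie on 5 chromosomes as short spliced units. GENCODE (GRCm38) places Gas5 at chr1:161034422-161038539 and Snhg6 at chr1:9941959-9944118, Snhg8 at chr3:123507552-123508404, and Snhg12 and Snhg3 at chr4:132308623-132311024 and chr4:132348014-132353686. Snhg5 is at chr9:88521050-88522929 and Snhg1 at chr19:8723475-8726443. Within these spans, on the same strand, 29 snoRNA genes of 60 to 205 bases are annotated, such as Snord47, Snord78 and Snord80 in Gas5, Snord50a and Snord50b in Snhg5, Snora24 in Snhg8 and Snora16a, Snora44, Snora61 and Snord99 in Snhg12. The count files list 25 of the 29. Of these, 24 had 0 counts in all 8 libraries, and Snord87 of Snhg6 had between 0 and 6. Reads shorter than 120 bases were removed in trimming, and 22 of the 25 lie wholly inside annotated exons of their host, so that the mature snoRNAs were not measured here. The values below are therefore host transcript levels, spliced and unspliced RNA together. By default, HTSeq does not assign a read that fits both a host and a listed snoRNA gene. How far this lowered the host counts was not tested.

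The libraries held 34220182 to 46233555 counts on genes. Of 10 neutrophil markers, 8 were higher in Cxcr2-/- and 1, Csf3r, was lower (log2 fold change -1.06). Their CPM (read counts scaled to a common library size) summed to 47121 to 64456 in WT and 105206 to 137300 in Cxcr2-/-. S100a8, among the higher ones, lay between 8956 and 14199 CPM in WT and between 27357 and 30150 in Cxcr2-/-. Cxcr2, the targeted gene, lay between 1719 and 2252 CPM in WT and between 12.9 and 20.7 in Cxcr2-/-. All 10 neutrophil precursor markers were higher in Cxcr2-/-, with a summed level of 900 to 1223 CPM against 270 to 329 in WT. Among 30 genes of other cell types, 24 could be tested. Of these, 9 were lower and 1 was higher, against 21.0% and 23.7% of all genes tested. B cell markers summed to 63.1 to 143 CPM in WT, to 30.7 and 28.3 in Cxcr2-/- replicates 1 and 2 and to 49.6 and 63.4 in replicates 3 and 4. Macrophage and monocyte markers summed to 442 to 539 CPM in WT and 201 to 295 in Cxcr2-/-, mostly Csf1r. The sort gated out F4/80+ cells, and Adgre1, which codes for F4/80, was at 26.6 to 36.5 CPM in WT and 9.60 to 16.3 in Cxcr2-/-. Erythroid markers summed to 10.9 and 11.3 CPM in Cxcr2-/- replicates 3 and 4 and to 1.58 to 4.20 in the other libraries. Platelet markers summed to 5.88 to 7.88 CPM in WT and 3.85 to 6.29 in Cxcr2-/-, nearly all Itga2b and Gp9, with Pf4 and Ppbp at 0.152 or less. Dendritic cell markers summed to 2.14 to 11.2 CPM in WT and 0.97 to 3.74 in Cxcr2-/-. T and NK cell markers summed to 97.4 to 117 CPM in WT and 97.0 to 141 in Cxcr2-/-, mostly Cd3d, while Cd3e was at 0.563 or less. In bulk samples, fewer cells that express a gene and less RNA per cell cannot be told apart.

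Gas5 and Snhg8 fell in Cxcr2-/- neutrophils, to 55.8% and 60.3% of WT. The other 4 genes tested, Snhg12, Snhg1, Snhg5 and Snhg6, did not pass the test, and Snhg3 had no counts. Thus 2 of 6 tested genes were lower at an adjusted p under 0.05 in edgeR's quasi-likelihood test, both by more than 1.5-fold, where 21.0% of all 16778 genes tested were lower and 15.7% were lower by at least 1.5-fold. None of the 6 was higher, also at an unadjusted p under 0.05 or in DESeq2, against 23.7% of all genes. With so few genes, these shares do not set the host genes apart from the rest of the transcriptome. The 7 levels summed to 79.2 ± 1.88 CPM in WT and 49.2 ± 9.03 CPM in Cxcr2-/- (SD, n = 4 each), of which Gas5 made up 56.9% and 51.1%.

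Gas5, growth arrest specific 5, had the highest CPM of the 7. It reached 46.1, 42.7, 43.9 and 47.5 CPM in WT replicates 1 to 4 (1641 to 2126 counts), and 21.4, 23.8, 29.8 and 25.5 CPM in Cxcr2-/- replicates 1 to 4 (846 to 1174 counts). Every Cxcr2-/- library lay below every WT library. The log2 fold change was -0.84 with a 95% interval of -1.07 to -0.61 (SE 0.11, edgeR adjusted p = 4.63e-05). The call held without any single library, with adjusted p of at most 2.78e-04. With the mean level of the 30 non-neutrophil genes as a covariate the log2 fold change was -0.80 (edgeR adjusted p = 2.22e-04). The precursor markers given above also differ between the genotypes, and their part in the change was not tested.

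Snhg8, the host of the box H/ACA RNA Snora24, was lower too. It stood at 15.7, 12.8, 13.9 and 14.3 CPM in WT and at 6.85, 8.72, 8.67 and 9.94 CPM in Cxcr2-/-, in replicate order. Again the groups did not overlap, which was so for 2 of the 6 host genes and for 41.6% of all genes tested (19.1% with Cxcr2-/- below WT). The log2 fold change was -0.73, with a 95% interval of -1.02 to -0.44 (SE 0.13, edgeR adjusted p = 7.96e-04). It was -0.67 with the covariate for non-neutrophil genes (edgeR adjusted p = 0.0039) and kept its call without any single library. The intervals of Gas5 and Snhg8 overlap over most of their length, and a difference between their fold changes was not tested.

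**Figure D1:**
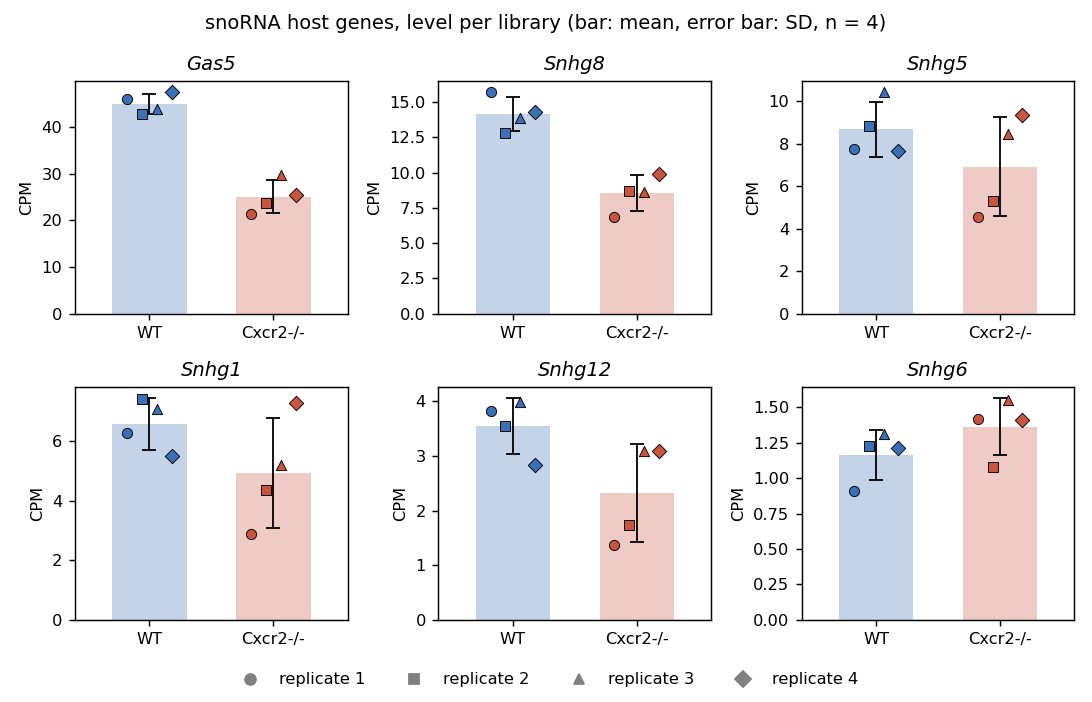
Level of each host gene in CPM (vertical axis, from 0, own scale per gene) in the 4 WT and 4 Cxcr2-/- libraries, with a marker shape for each replicate number, bars for means and error bars for the SD. The Cxcr2-/- libraries lie below all WT libraries for Gas5 and Snhg8 alone. In Gas5, Snhg5, Snhg1 and Snhg12, Cxcr2-/- replicates 1 and 2 lie below Cxcr2-/- replicates 3 and 4.

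Snhg12, the host of Snora16a, Snora44, Snora61 and Snord99, had a mean of 3.55 ± 0.51 CPM in WT and 2.32 ± 0.90 in Cxcr2-/- (SD, n = 4 each). The WT libraries held 3.82, 3.56, 3.98 and 2.83 CPM and the Cxcr2-/- libraries 1.37, 1.74, 3.10 and 3.09 CPM. Cxcr2-/- replicates 1 and 2 lay below every WT library, while replicates 3 and 4 lay inside the WT range. The log2 fold change of -0.61 (95% interval -1.19 to -0.03) had an unadjusted p of 0.0407 and an adjusted p of 0.0817 in edgeR's quasi-likelihood test, and so missed the threshold. Without Cxcr2-/- replicate 3 it was -0.78 (edgeR adjusted p = 0.0465), and without Cxcr2-/- replicate 4 it was -0.79 (edgeR adjusted p = 0.0403). It moved the other way without Cxcr2-/- replicate 1 (-0.42, edgeR adjusted p = 0.189) and without Cxcr2-/- replicate 2 (-0.49, edgeR adjusted p = 0.192).

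Snhg1, whose introns hold a series of box C/D RNAs with Snord22 among them, showed the same uneven libraries. Its level was 6.30, 7.44, 7.11 and 5.50 CPM in WT and 2.88, 4.37, 5.21 and 7.29 CPM in Cxcr2-/-. Replicate 4 of Cxcr2-/- was above 3 of the 4 WT libraries, and the other Cxcr2-/- libraries were below all of them. The log2 fold change was -0.41 with a 95% interval of -0.93 to 0.10 (SE 0.24, edgeR adjusted p = 0.179). Without Cxcr2-/- replicate 1 it was -0.22 (edgeR adjusted p = 0.405). Without Cxcr2-/- replicate 4 it was -0.68 and passed (edgeR adjusted p = 0.0242). In that last fit 4 host genes instead of 2 were lower, 4 of them by at least 1.5-fold.

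Snhg5, the host of the box C/D RNAs Snord50a and Snord50b, spanned 7.67 to 10.4 CPM in WT, and it reached 4.55, 5.31, 8.44 and 9.33 CPM in Cxcr2-/- replicates 1 to 4. The last pair lay inside the WT range and the first pair below it. The log2 fold change was -0.33 (95% interval -0.80 to 0.15, edgeR adjusted p = 0.250).

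Snhg6, the host of Snord87, was the only tested host gene with a positive value. It had 41 to 61 counts in WT and 39 to 61 in Cxcr2-/-, or 0.91 to 1.31 CPM and 1.08 to 1.55 CPM. The ranges overlapped, and the log2 fold change of 0.23 did not pass (95% interval -0.29 to 0.75, edgeR adjusted p = 0.465). At this depth a change of up to 1.69-fold upward or to 0.82 of WT remained inside the interval.

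Snhg3, the host of Snora73a and Snora73b, had 0 counts in all 8 libraries. A count of 0 allows up to 3 counts, or 0.0603 to 0.0868 CPM depending on the library. Its annotated exons share 135 bases with Rcc1 on the same strand (13.7% of them) and 705 bases (71.5%) with Gm17300 on the other strand. HTSeq by default does not assign a read that fits more than 1 gene, and the strand setting of the counting is not given in the sources used here. How far this lowered the count of Snhg3 was not tested, and the 0 is not a sign that the gene is silent. Rcc1, the exchange factor of the GTPase Ran, starts 81 bases from Snhg3 and rose from 3.68 to 5.86 CPM (log2 fold change 0.67, edgeR adjusted p = 0.0076).

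Set per kilobase of annotated exon, the order of the host genes in WT was Snhg8 (16.6 ± 1.41 CPM per kb), Gas5 (12.0 ± 0.58), Snhg5 (5.01 ± 0.74), Snhg1 (2.22 ± 0.29), Snhg12 (1.48 ± 0.21) and Snhg6 (1.02 ± 0.15; SD, n = 4). No neighbours in this order shared a value among the 4 WT libraries. In Cxcr2-/- the first 4 kept their places, with 10.0 ± 1.49 CPM per kb for Snhg8, 6.68 ± 0.95 for Gas5, 3.99 ± 1.35 for Snhg5 and 1.66 ± 0.62 for Snhg1 (SD, n = 4). Snhg6 (1.19 ± 0.17) and Snhg12 (0.97 ± 0.38) changed places there, but the libraries of Snhg1, Snhg6 and Snhg12 overlapped. The lengths take every annotated exon, retained introns included, so the order of the levels depends on the annotation.

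**Figure D2:**
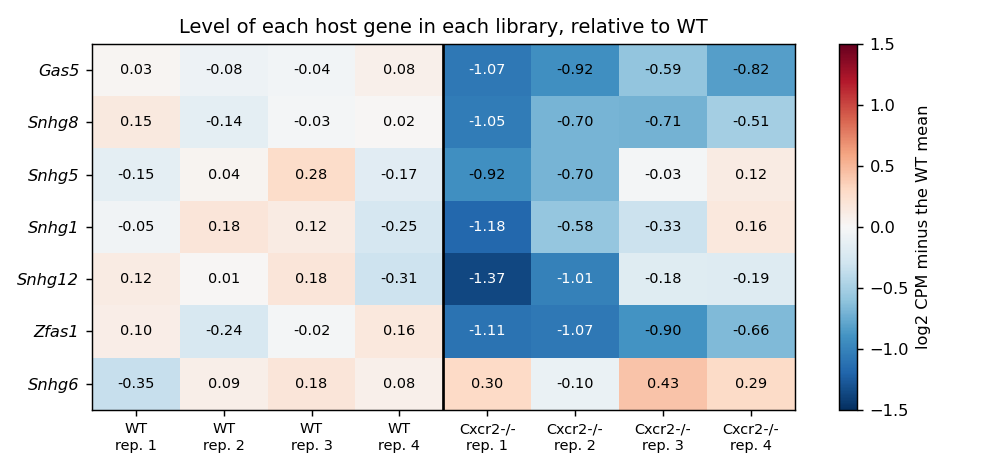
Log2 CPM of each host gene, and of Zfas1, in each library minus the mean of the 4 WT libraries (rows, genes; columns, libraries; blue, below WT; red, above). Gas5, Snhg8 and Zfas1 are below the WT mean in all 4 Cxcr2-/- libraries, and for Snhg12 the values run from -1.37 in replicate 1 to -0.18 in replicate 3.

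Part of the spread among Cxcr2-/- mice was shared, as the map of levels relative to WT shows. In Gas5, Snhg5, Snhg1 and Snhg12, Cxcr2-/- replicates 1 and 2 lay below replicates 3 and 4. In Snhg8 and Snhg6 this order did not hold. Cxcr2-/- replicate 1 was the lowest of its group for 5 of the 6 tested genes, and replicates 3 and 4 were each the highest for 3. The mean log2(CPM + 1) of the 30 non-neutrophil genes was 1.64 and 1.40 in Cxcr2-/- replicates 1 and 2, 1.95 and 2.12 in replicates 3 and 4, and 1.76 to 2.30 in WT. Mpo, the primary granule peroxidase, ran from 19.1 to 146 CPM in Cxcr2-/-, with replicates 3 and 4 the highest, as for the erythroid sum given above. The precursor markers Elane, Prtn3, Ctsg and Ms4a3 were also highest in these replicates. The other precursor markers, Mki67, Top2a, Cdk1, Ccnb1 and Birc5, did not have this order. Mki67 was at 545, 600, 572 and 557 CPM in Cxcr2-/- replicates 1 to 4. With the non-neutrophil covariate the log2 fold changes of Snhg12, Snhg1 and Snhg5 came to -0.25, -0.11 and -0.05, with edgeR adjusted p of 0.435, 0.719 and 0.879. The covariate was below all WT libraries in Cxcr2-/- replicates 1 and 2, so this fit cannot fully separate it from the genotype. The part of the non-neutrophil and precursor genes in the host gene values was not tested.

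The genes whose log2 CPM over the 8 libraries was most like the mean of the 6 tested host genes were Rrp1b (Pearson r = 0.988), L3mbtl3 (0.988), Ncl (0.986), Rnf138 (0.985) and Dnajb4 (0.984), of 7500 genes whose log2 CPM averaged 3 or more. The 8 libraries share the genotype difference and their depths, and r is given as a description. Rrp1b and Ncl code for nucleolar proteins of ribosome assembly. Ncl, nucleolin, hosts snoRNAs itself and went from 83.2, 98.8, 99.4 and 90.2 CPM in WT to 47.5, 52.8, 77.4 and 78.6 CPM in Cxcr2-/- (log2 fold change -0.54, edgeR adjusted p = 0.0127). The pair of lower libraries was again replicates 1 and 2, and with the non-neutrophil covariate Ncl no longer passed (-0.34, edgeR adjusted p = 0.0646).

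Among 13 further lncRNA hosts, taken by symbol, 10 could be tested. Of these, 1 was lower and 1 was higher, against 21.0% and 23.7% of all genes tested. Zfas1, host of box C/D RNAs, fell from 15.1, 11.9, 13.8 and 15.7 CPM in WT to 6.52, 6.70, 7.55 and 8.87 CPM in Cxcr2-/-, with no overlap. Its log2 fold change of -0.93 (95% interval -1.23 to -0.62, edgeR adjusted p = 1.87e-04) passed under every alternative. Rian, from the imprinted Meg3 cluster, was higher by a log2 fold change of 1.31 at a mean of 0.44 CPM in WT (edgeR adjusted p = 0.0083), which did not hold with the non-neutrophil covariate (edgeR adjusted p = 0.0961). Snhg9 had the lowest value, -1.01, without passing (edgeR adjusted p = 0.175). Without Cxcr2-/- replicate 4, 3 of these genes were lower.

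**Figure D3:**
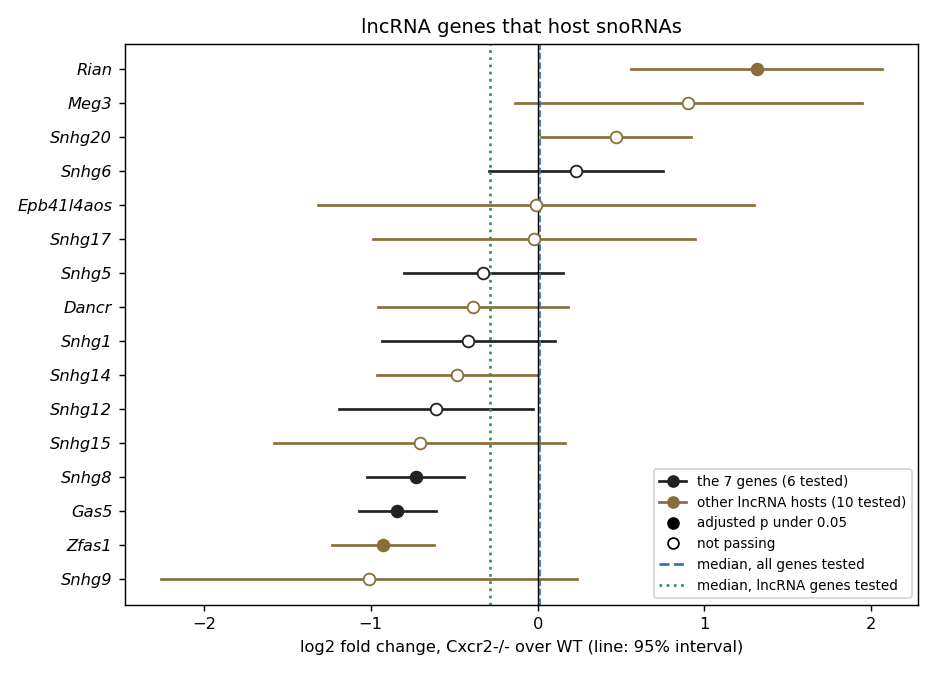
Log2 fold change of Cxcr2-/- over WT (horizontal axis) with its 95% interval for the 6 tested host genes (black) and the 10 tested further lncRNA hosts (brown), where filled points have an adjusted p under 0.05. The whole intervals of Gas5, Snhg8, Zfas1 and Snhg12 lie left of 0, and those of Rian and Snhg20 lie right of 0. Of these genes, Snhg12 and Snhg20 did not pass after adjustment (edgeR adjusted p = 0.0817 and 0.0818).

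The median log2 fold change was -0.51 over the 6 host genes, -0.20 over the 10 further lncRNA hosts, 0.01 over all genes tested and -0.29 over all 2003 lncRNA genes tested. Of these lncRNA genes, 26.9% were lower and 7.49% higher, so lncRNA genes as a class were more often lower than higher in these libraries. Protein-coding genes with a snoRNA in their span had the other balance. Of 200 tested, 74 were higher (37.0%, against 23.7% of all genes) and 37 lower (18.5%, against 21.0%), with a median of 0.19. Among 10 well-known hosts of this kind, Rack1, a ribosomal scaffold protein, was higher (log2 fold change 0.94, edgeR adjusted p = 0.0013), and Ncl and the helicase Eif4a2 were lower (Eif4a2 -0.64, edgeR adjusted p = 1.02e-04).

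Among the genes beside a host gene, Rcc1, given above, was higher, Zbtb37 was lower and the others did not pass. Zbtb37, a zinc finger gene that starts 427 bases from Gas5 on the opposite strand and shares no exon base with it, fell from a mean of 47.5 to 33.7 CPM (log2 fold change -0.49, edgeR adjusted p = 0.0024). Slc3a2, the heavy chain of the CD98 amino acid transporter, starts 106 bases from Snhg1 on the opposite strand and was at 58.6 and 56.4 CPM (log2 fold change -0.06, 95% interval -0.23 to 0.12, edgeR adjusted p = 0.609). Mcmdc2 shares 127 exon bases with Snhg6 on the opposite strand and did not pass (-0.20, edgeR adjusted p = 0.573), and nor did Gm17300 over Snhg3 (-0.56, edgeR adjusted p = 0.229).

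Of the proteins that bind the mature snoRNAs, 1 of 8 passed the test, against 44.7% of all genes tested. In the box C/D core, Snu13, which binds the kink-turn of the RNA first, fell from 14.6, 17.4, 15.1 and 18.2 CPM to 7.96, 8.52, 9.18 and 11.9 CPM (log2 fold change -0.80, edgeR adjusted p = 6.59e-04), while the methyltransferase Fbl (-0.37) and the scaffold proteins Nop56 (-0.31) and Nop58 (-0.13) did not pass. The box H/ACA core had 0 of 4 genes past the threshold with edgeR, 0 at an unadjusted p under 0.05 and 0 with DESeq2, and a median of 0.28. With the non-neutrophil covariate, 2 of the 4 were higher, Nhp2 at a log2 fold change of 0.60 (edgeR adjusted p = 0.0167) and Nop10 at 0.81 (edgeR adjusted p = 0.0239). Of 10 assembly factors, 3 were higher and 0 lower (all genes: 23.7% and 21.0%), with the same counts at unadjusted p and with DESeq2. These were Pih1d1 (1.01) and Ruvbl2 (0.85) of the R2TP chaperone complex, and Znhit3 (0.97), whose adjusted p rose to 0.0614 without Cxcr2-/- replicate 3 and which lost its call with 6 of the 8 libraries left out in turn.

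Of 18 nonsense-mediated decay and exon junction genes, 6 were higher (33.3%) and 2 lower (11.1%), with a median of 0.03. Over all genes tested, the shares were 23.7% and 21.0%. Nbas (1.17), Magohb (1.01), Smg9 (0.74), Upf3a (0.63), Rbm8a (0.56) and Smg5 (0.54) rose, and the decapping coactivator Pnrc2 fell by 0.47 on the log2 scale. Smg1, the kinase of the pathway, was at -0.35 and passed except without Cxcr2-/- replicate 3 or WT replicate 4 (edgeR adjusted p = 0.083 at most).

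Of 17 translation factors encoded by TOP mRNAs, 6 were higher (35.3%) and 1 lower (5.88%), with a median of 0.19. Over all genes tested, the shares were 23.7% and 21.0%. Eif3h rose from a mean of 25.5 to 51.5 CPM (log2 fold change 1.01), and Rack1 (0.94), Naca (0.67), and Eif3f (0.46) rose as well. Eif4b (0.31), Eef1a1 (0.50) and Nap1l1 (-0.35) passed, but each lost its call with at least 1 library left out. The highest edgeR adjusted p was 0.0626 without WT replicate 3 for Eif4b, 0.104 without Cxcr2-/- replicate 3 for Eef1a1 and 0.0974 without WT replicate 1 for Nap1l1. The count of lower genes was then 0 without WT replicate 1 or 4 or Cxcr2-/- replicate 1 or 2.

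Of 14 genes of mTOR signalling and TOP mRNA control, 7 were higher and 2 lower (all genes: 23.7% and 21.0%). The median log2 fold change of the list was 0.31. The mTOR subunit Mlst8 (1.23), the TOP-binding repressor Larp1 (0.85), the mTORC1 scaffold Rptor (0.64) and its inhibitor Tsc2 (0.51) rose, and Cnbp, a protein that binds TOP mRNAs, fell by 0.57 on the log2 scale. Tsc1 (0.42), Rps6kb2 (0.36), Mtor (0.31) and Rheb (-0.27) lost their calls with 2, 5, 5 and 6 of the 8 libraries left out in turn. The count of higher genes was then 4 without WT replicate 3, and that of lower genes was 1 without WT replicates 1, 3 or 4 or Cxcr2-/- replicates 2 or 3. The list holds activators and inhibitors of the pathway alike.

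Of 14 genes of RNA polymerase I and ribosome assembly, 3 were higher (21.4%) and 2 lower (14.3%), with a median of 0.12. Over all genes tested, the shares were 23.7% and 21.0%. Rrn3 (0.71) and Taf1b (0.45), both initiation factors of rRNA transcription, rose and Ncl fell. Pes1 (0.51) and the catalytic subunit Polr1a (-0.43) lost their calls with 5 and 4 of the 8 libraries left out in turn. Without WT replicate 1 or 4 or Cxcr2-/- replicate 3 or 4, 1 gene was lower. Nr3c1, the glucocorticoid receptor to which Gas5 RNA binds, fell from 333, 340, 286 and 329 CPM to 210, 231, 187 and 207 CPM (log2 fold change -0.63, edgeR adjusted p = 2.52e-04). Myc, a regulator of ribosome production, was at 0.46 to 1.79 CPM in WT and 0.30 to 1.75 in Cxcr2-/- and did not pass (log2 fold change -0.37, edgeR adjusted p = 0.579).

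**Figure D4:**
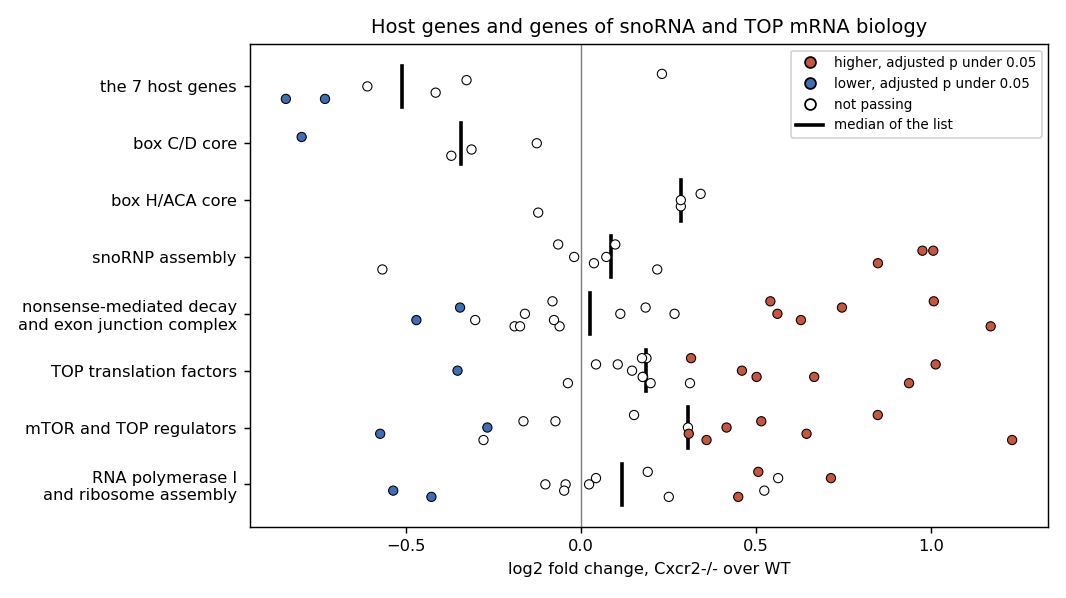
Log2 fold change of Cxcr2-/- over WT (horizontal axis) of each tested gene in the host gene set and in 7 lists of related genes, with red points higher and blue points lower at an adjusted p under 0.05, open points not passing, and a black bar at the median of each list. The medians run from -0.51 for the host genes to 0.31 for the mTOR and TOP regulators.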

How the data were processed

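The authors sequenced paired reads, checked them with FastQC, trimmed them (minimum length 120 bases), aligned them to mm10 with STAR and deposited raw HTSeq read counts per gene for each mouse. The counting annotation and strand setting are not given in the sources used here. Identifiers were matched to GENCODE M21 without their versions (52081 of 55414). Reads on no gene were left out, as were ambiguous and multiply aligned ones. Those on no gene were 31.4% to 41.5% of everything HTSeq listed in WT and 26.7% to 31.9% in Cxcr2-/-.

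Counts were tested with edgeR 4.0.16 in R 4.3.3 (TMM, filterByExpr, quasi-likelihood test, no covariate, Benjamini-Hochberg over 16778 genes, all 8 libraries). Genes were called at an adjusted p under 0.05, also with a 1.5-fold limit. CPM use TMM-scaled library sizes. On simulated counts for 16778 genes with 200 changed, 71% of 2-fold and 89% of 4-fold changes were recovered. Libraries of a group differed beyond sampling noise, so none was the same library sequenced again. A single library per mouse measures mouse and handling together.

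The genes and lists were chosen with earlier results of these data known. Named genes were the 7 host genes, their snoRNA genes and neighbours (overlapping, or starting within 2000 bases), list members past the threshold or with the largest change, and the 5 most alike. Alternatives were DESeq2 1.42.0, other scalings and filters, a non-neutrophil covariate, a replicate block and leaving out each library. Promoter sequences came from the RefSeq table.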

Additional observations from a re-analysis of the deposited data

How the results depend on the processing

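Gas5, Snhg8 and Zfas1 kept their direction and passed under all 16 alternatives. For Gas5, the log2 fold change ran from -0.94 to -0.77 with single libraries left out. The host genes called lower numbered 2 to 4 with single libraries left out, and so did those past 1.5-fold, with 4 without Cxcr2-/- replicate 4. Without single libraries, Snhg1 ran from -0.68 to -0.22 and Snhg12 from -0.79 to -0.42 on the log2 scale. Snhg12 also passed under upper-quartile scaling (-0.73). The cause was not tested. That scaling moved the median of all genes to -0.11, so Gas5 at -0.96 and Snhg8 at -0.85 are read relative to it. Higher genes made up 53.0% of calls, against 41.2% with upper-quartile scaling and 44.3% with total counts. Over the 8 pathway lists of 82 genes, 25 genes were higher (18 to 28 over the alternatives) and 9 were lower. The lower ones numbered 15 under upper-quartile scaling and 5 to 9 with single libraries left out. Over all genes tested, 23.7% were higher and 21.0% lower, and no list was tested as a set.

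By list, the lower genes numbered 1 to 5 (2 as reported) for nonsense-mediated decay, 1 to 4 (2) for mTOR, 0 to 1 (1) for TOP factors, 1 to 2 (2) for RNA polymerase I, 1 to 2 (1) for the box C/D core and 1 to 3 (1) for further lncRNA hosts. Higher genes numbered 4 to 7 (7) for mTOR, 0 to 2 (0, and 2 with the non-neutrophil covariate) for the box H/ACA core and 0 to 1 (1) for further lncRNA hosts. With the non-neutrophil covariate, Slc3a2 (0.0034), Nop58 (0.18) and Myc (0.65) turned positive on the log2 scale without passing. With single libraries left out, Nop58 ran from -0.37 to 0.037. Of 46 named genes past the threshold, 29 stayed past it in all alternatives. The genes most like the host genes lost calls with the covariate, and so did Rrp1b, L3mbtl3 and Dnajb4 with some library left out.

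Replicate numbers are shared by different mice, and same-numbered libraries did not deviate together (correlations 0.12, -0.19, 0.16 and -0.26, 3 of 8 libraries closest to their own number). With the replicate block, 2 host genes were lower (Gas5 -0.85, Snhg8 -0.74), and 3349 genes were lower and 3719 higher over all, against 3526 and 3969 without it. At 41 to 61 counts, Snhg6 had a wide interval, and Snhg3 could not be tested.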
